A study of Mus musculus with 6 samples.

Results

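The cytosolic ribosomal protein genes encode the proteins of the ribosome that translates nuclear messages. They were selected by name, as protein-coding genes called Rpl or Rps with a number, plus Rpsa, Rplp0, Rplp1 and Rplp2, without pseudogenes and without the Rps6k kinases. Of the 16018 genes in the deposited heart table, 81 fitted, of which 49 belong to the large and 32 to the small subunit. They lie on 19 chromosomes, with 4 on X. The annotation lists 83 such genes, and the other 2, Rpl10l and Rpl39l, were not analysed here. Hearts of 3 female NBCe1-B/C KO mice (KO) and 3 female WT mice, 4 to 5 weeks old and on a C57BL/6J background, were compared by RNA sequencing, with 1 library per heart. The KO mice lack the B and C variants of the sodium bicarbonate cotransporter NBCe1, the product of Slc4a4, in all tissues, and keep the kidney variant. The loss is lifelong, and because many KO mice die young, the hearts come from survivors. The question was how the message of each ribosomal protein differed between KO and WT hearts, within and between the subunits and between paralogs.

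A ribosome joins a large subunit, which forms the peptide bonds, to a small subunit, which reads the message. Each cell needs nearly equal amounts of the separate proteins, and the genes are transcribed at high, matched rates. Their messages begin with a C followed by a run of pyrimidines, the terminal oligopyrimidine (TOP) motif, through which the growth-controlling kinase mTOR sets how strongly they are translated. A few proteins have paralogs that can take their place. Rpl3l replaces Rpl3 in the ribosomes of heart and skeletal muscle, and Rpl22l1, Rps27l and Rpl7l1 resemble Rpl22, Rps27 and Rpl7. In the heart, as in other muscle, ribosome content helps to set how much protein is made.

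RefSeq promoter sequences (GRCm38.p6, from 250 bases before to 50 bases after an annotated start) were matched for 61 of the 81 genes. The windows below run from 10 bases before to 20 bases from the start, and capitals mark an uninterrupted pyrimidine run that begins with C at the annotated start. They are shown because this run is the known start of ribosomal protein messages. The annotated start of Rps27 has it, while those of its paralog Rps27l, of Rpl22l1 and of Rpl3l do not. The annotated starts of the parents Rpl22 and Rps4x lack it as well, so it does not set parents apart from paralogs. In the printed windows of Rps27l and Rpl22l1, a pyrimidine run follows directly after the annotated first base. Of the 2 annotated starts each of Rps27l and Rpl3l, the upstream one is shown.
Rps27 (chr3:90213629-90213658, minus strand): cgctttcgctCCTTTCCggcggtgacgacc
Rps15a (chr7:118116128-118116157, minus strand): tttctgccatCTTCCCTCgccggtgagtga
Rps10 (chr17:27635225-27635254, minus strand): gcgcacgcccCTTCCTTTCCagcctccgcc
Rps18 (chr17:33955646-33955675, minus strand): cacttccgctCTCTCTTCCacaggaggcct
Rps27l (chr9:66946076-66946105, plus strand): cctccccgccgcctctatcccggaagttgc
Rpl22l1 (chr3:28805498-28805527, plus strand): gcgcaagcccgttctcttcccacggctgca
Rpl3l (chr17:24727816-24727845, plus strand): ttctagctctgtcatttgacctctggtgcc
Rps27, Rps15a, Rps10 and Rps18 have the most negative fold changes among the genes with such a run. A C at an annotated start followed by at least 4 more pyrimidines was found in 13 of the 61 matched genes (21.3%), against 3.01% of all genes in the promoter table. The letters CCGGAAG, searched on both strands of the 300 bases, were present in 25 of the 61 (41%), against 9.93% of all genes. Among the genes of the mitochondrial ribosome they were present in 26 of 69 matched (37.7%), and 0 of the 69 had a pyrimidine run at the start. Where the run or these letters are missing, they are only not at the annotated place, which can miss the start by a few bases. The median log2 fold change was -0.36 in the 13 genes with the run and -0.35 in the 47 others apart from Rpl3l. Because the 47 can include messages whose run lies a few bases from the annotated start, these medians cannot compare genes with and without a TOP start.

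The libraries held 41364857 to 49100802 reads on genes, and each KO library was deeper than each WT library. Slc4a4, the targeted gene, had normalized counts of 264, 945 and 269 in KO and 675, 822 and 789 in WT. The library labelled KO 2 was therefore above every WT library, and results are also given without it. All 10 cardiomyocyte markers were in the table. Their median level was 216911 normalized counts per kb of the principal transcript, against 190.3 for all genes tested, which matched the heart label. The markers summed to between 2996241 and 3355325 normalized counts in KO and between 2691841 and 2794879 in WT. In KO, 5 of the 10 genes were higher and 5 lower. Cell-cycle markers were lower in KO for 12 of 12 genes, with sums of 1128 to 1597 in KO and 1684 to 5447 in WT, and WT 1 was the highest. Macrophage markers summed to 12979 to 14737 in KO and to 16009 to 16596 in WT, with 5 of 8 genes lower. The sums of atrial, skeletal muscle, endothelial, fibroblast, smooth muscle, lymphocyte, erythroid and adipose markers overlapped between genotypes, and Myh4, Cd3e, Dntt and Rag1 of these lists were not in the table. The part of these cell types in the results that follow was not tested. In whole hearts, fewer cells with high ribosomal protein expression cannot be told apart from less of this RNA per cell.

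In KO hearts, 80 of the 81 ribosomal protein genes had a lower mean than in WT hearts, and Rpl3l was the exception. For each of the 80, the 3 KO libraries were all below the 3 WT libraries, which was true of 14.6% of all 16016 genes tested. In no case were the KO libraries all above the WT libraries, compared with 15.6% of all genes. The median log2 fold change of the 81 genes was -0.35, and that of all genes was -0.0043. Without Rpl3l, the median KO level was 21.8% below WT, and the log2 fold changes ran from -0.51 (Rps14) to -0.18 (Rps4x). The SD of the log2 fold change between these genes was 0.077. Between the highest KO and the lowest WT library, the gap was 2.03% at the smallest and 16.2% at the median over the 80 genes.

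No ribosomal protein gene passed an adjusted p of 0.05 with limma and Benjamini-Hochberg adjustment, and neither did any other gene (0%). The lowest adjusted p was 0.0815, a value that many genes share because the adjustment ties neighbouring ranks. Lower values in KO with an adjusted p under 0.1 were found for 62 of the 81 genes and 3.03% of all genes. At an unadjusted p under 0.05, the numbers were 80 of 81 and 10.5%. DESeq2, run on the recovered reads as an alternative, called 76 of the 81 lower at an adjusted p under 0.05, against 3.76% of all genes. The 5 it did not call were Rpl3l, Rpl10, Rps4x, Rps28 and Rps29, and the quasi-likelihood test of edgeR called 0 of the 81 and 0 of all genes, with 79 of the 81 and 10.7% of all genes lower at an unadjusted p under 0.05. Without the library labelled KO 2, the median log2 fold change was -0.39, and for the 80 genes it ran from -0.59 (Rpl3) to -0.19 (Rps13). The remaining KO libraries lay below all WT libraries for 80 genes (19.4% of all genes), and DESeq2 called 69 lower (2.52% of all genes). The number under an adjusted p of 0.1 with limma was 0 without the library labelled KO 2, and also 0 without KO 1, WT 1 or WT 3. It was also 0, as for all genes tested, when limma was run without its variance trend (lowest adjusted p 0.203). With values corrected for length and GC content, as described with the length plot, it was again 0 (lowest adjusted p 0.244 with limma).

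**Figure D1:**
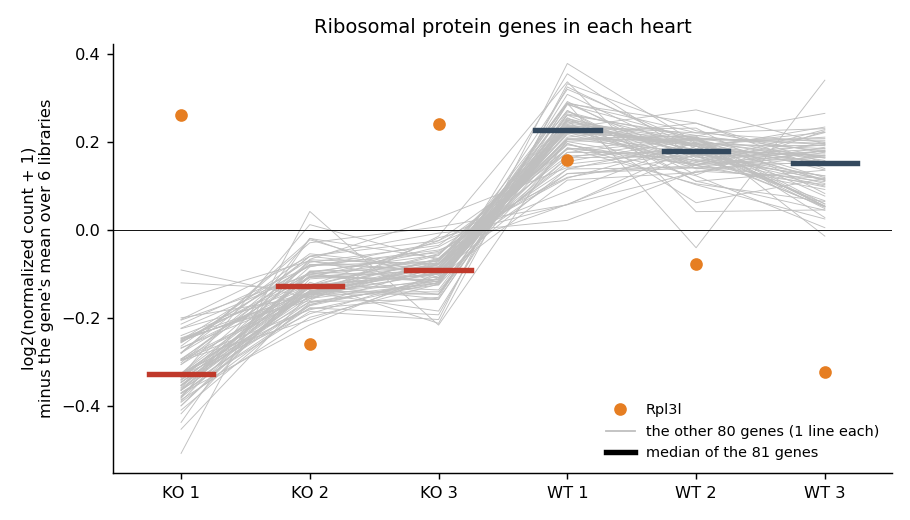
Each grey line joins the 6 values of a gene, as log2(normalized count + 1) minus the gene's mean over the 6 libraries (vertical axis), for 80 ribosomal protein genes. Bars mark the median of all 81 genes in each library, from -0.33 in KO 1 to 0.23 in WT 1, and orange points mark Rpl3l, which is highest in KO 1 and lowest in WT 3.

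The genes moved together across the 6 libraries, with a more uniform order among KO than among WT hearts. The median deviation of the 81 genes from their own means was -0.33, -0.13 and -0.091 in KO 1, the library labelled KO 2 and KO 3, and 0.23, 0.18 and 0.15 in WT 1, WT 2 and WT 3 (log2 scale). KO 1 was the lowest library for 78 of the 81 genes. WT 1 was the highest for 50, WT 2 for 22 and WT 3 for 8. KO 1 also had low sums of several cell type markers. Its atrial sum was 15730 against 74008 and 88433 in the other KO libraries, and its adipose sum was 1075 against 3869 and 7649. Its macrophage, endothelial, fibroblast and cell-cycle sums were the lowest of the 6 libraries. By contrast, its cardiomyocyte sum (3355325) and its share of counts from the mitochondrial genome (20.9%) were the highest of the 6 libraries. Low atrial and adipose sums were not particular to KO 1. WT 1 had an atrial sum of 24721 against 88527 and 111699 in WT 2 and WT 3, and an adipose sum of 2976 against 6940 and 3854. Without KO 1, 80 genes still had both KO libraries below all WT libraries, against 18.2% of all genes. The part of these differences in the result was not tested. The median correlation between 2 of the 80 genes across the 6 libraries was 0.96, a description over points that share library, depth and genotype. Both genotypes enter this value, so the difference between them raises it. Among KO libraries the spread of a gene was larger (median SD 0.12) than among WT libraries (0.054), whereas over all genes tested the medians were 0.13 and 0.13. As a share of all counts, the ribosomal protein genes took 1.20%, 1.47% and 1.53% in KO and 1.91%, 1.83% and 1.80% in WT. The mean share was 1.40% ± 0.175 in KO and 1.85% ± 0.0526 in WT (SD, n = 3 each, exact two-sided permutation p = 0.1, the smallest that 3 against 3 allows). The share taken by the mitochondrial genome was 19.5% ± 1.28 in KO and 18.7% ± 0.857 in WT (exact permutation p = 0.6, n = 3 each).

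Rpl13a, Rpl11 and Rpl31 had the most negative fold changes of the large subunit. Rpl13a, a structural protein that also joins a complex silencing inflammatory messages, had normalized counts of 6662, 8091 and 7583 in KO and 11058, 10269 and 9918 in WT. Its log2 fold change was -0.49 (SE 0.084, adjusted p = 0.0815). Rpl11, which binds the 5S ribosomal RNA together with Rpl5 and can restrain Mdm2, had 6257, 7125 and 7506 in KO and 9987, 9526 and 9389 in WT, with a log2 fold change of -0.47 (SE 0.078, adjusted p = 0.0815). Its partner Rpl5 had 10192, 11917 and 12115 in KO and 14749, 14232 and 14489 in WT, a log2 fold change of -0.35. Rpl31, which lies near the exit of the peptide tunnel, had 4943, 5854 and 6041 in KO and 8394, 7353 and 7429 in WT (log2 fold change -0.46). In each of these genes the highest KO library stayed clear of the lowest WT library.

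The stalk of the large subunit, which recruits elongation factors, is built from Rplp0, Rplp1 and Rplp2. Rplp0, the base, had 29929, 32517 and 33645 in KO and 43471, 38892 and 39581 in WT. Of the proteins attached to it, Rplp1 had 10439.6, 11948 and 12397 in KO and 15924, 15524 and 15389.9 in WT. Rplp2 had 5475, 6182 and 6303 in KO and 7188, 7495 and 6775 in WT. The log2 fold changes were -0.34, -0.43 and -0.26 (SE 0.080, 0.076 and 0.074), and for the base protein and for both partners KO 1 was the lowest library. Apart from Rpl3l, the smallest difference of the large subunit was that of Rpl10, which sits near the catalytic centre, with 8018, 9533 and 9775 in KO and 10121, 11105 and 10104 in WT (log2 fold change -0.20, SE 0.087, adjusted p = 0.206). Here WT 3 and KO 3 were close, and the groups still did not overlap. Rpl29 had 6193, 6129 and 6429 in KO and 7709.8, 7329.5 and 6755 in WT (log2 fold change -0.22), with the library labelled KO 2 lowest.

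In the small subunit, Rps14 and Rps27a had the most negative fold changes of all 81 genes. Rps14, a protein of the platform that binds the message and the gene lost in a human anaemia of the bone marrow, had 10798, 12268 and 12114 in KO and 18127, 15998 and 15855 in WT (log2 fold change -0.51, SE 0.080, adjusted p = 0.0815). Rps27a, made as a fusion with ubiquitin and so a source of both, had 4763, 5451 and 5390.3 in KO and 7716, 7001 and 7244 in WT (log2 fold change -0.49, SE 0.074, adjusted p = 0.0815). Rps27, which contains a zinc finger, had 4264, 5277 and 5446 in KO and 6851, 7049 and 6679.8 in WT (log2 fold change -0.47, SE 0.094, adjusted p = 0.0815). For all 3 genes KO 1 was the lowest library, and the highest KO library lay well below the lowest WT library.

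The smallest differences of the small subunit were in Rps4x, Rps13 and Rps6. Rps4x, an X-linked gene, had 13457, 14858 and 15414 in KO and 15727, 16997 and 16804 in WT (log2 fold change -0.18, SE 0.073, adjusted p = 0.181), and KO 3 came within a few percent of WT 1. Rps13 had 5994, 5736 and 6055 in KO and 7315, 6854 and 6495 in WT (log2 fold change -0.22). Rps6, the substrate of the S6 kinases downstream of mTOR, had 8323, 9114 and 9353 in KO and 10049.6, 10882 and 10444 in WT (log2 fold change -0.23, SE 0.068, adjusted p = 0.106). The other X-linked members, Rpl36a and Rpl39, had log2 fold changes of -0.40 and -0.41, so the small differences of Rps4x and Rpl10 were not shared by all 4 genes on that chromosome.

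**Figure D2:**
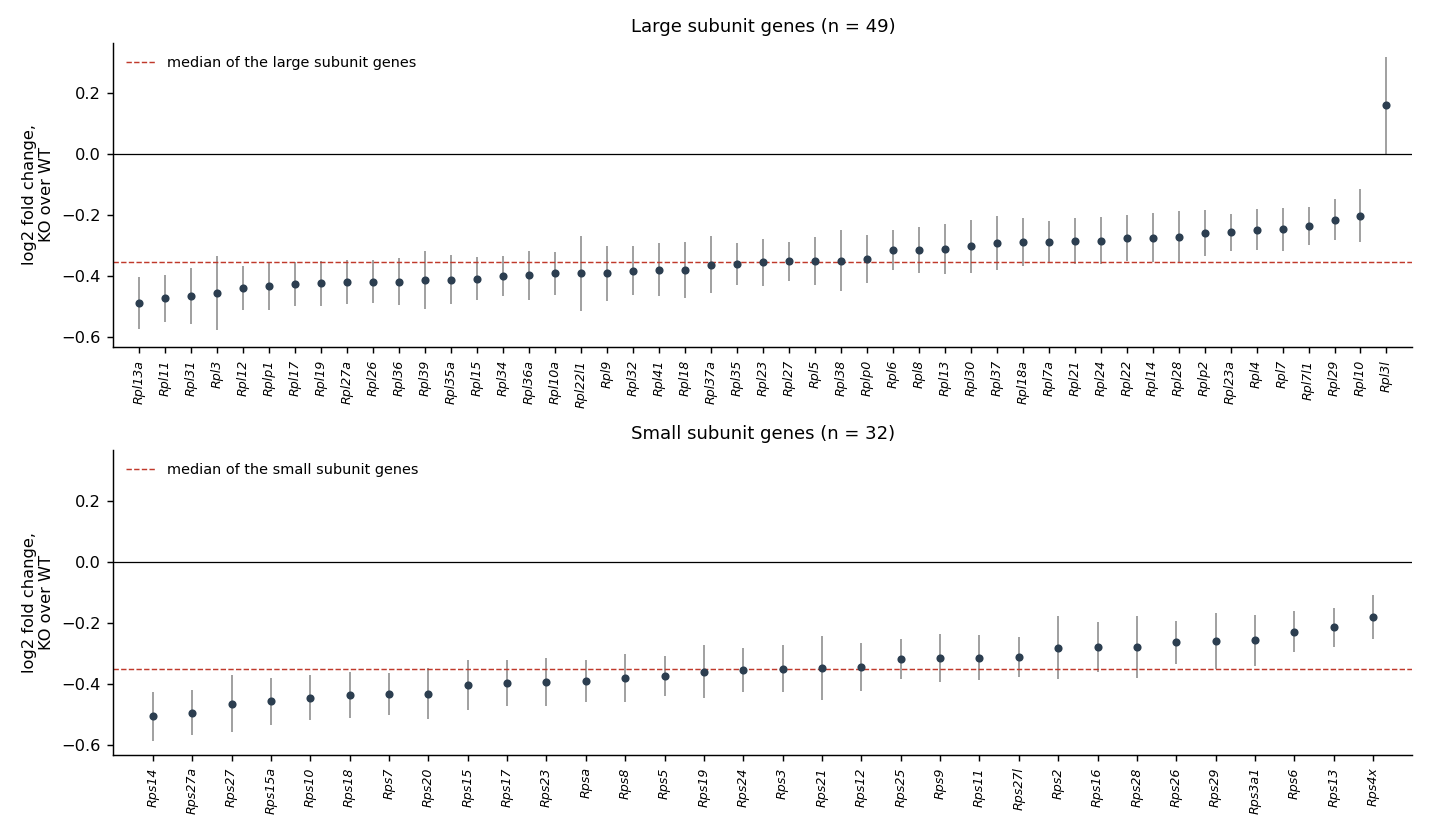
Points are the log2 fold change (KO over WT) of each ribosomal protein gene from limma, ordered within the large subunit (upper panel, 49 genes) and the small subunit (lower panel, 32 genes), and bars are standard errors. The dashed medians lie at -0.35 in both panels, and Rpl3l is the only point above 0.

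Both subunits were lower, with nearly equal medians. The median log2 fold change was -0.354 in the 49 large subunit genes, of which 48 were lower, and -0.352 in the 32 small subunit genes, of which 32 were lower. The summed normalized count of the large subunit genes was 363051 ± 26113 in KO and 455842 ± 14366 in WT, and that of the small subunit genes was 265967 ± 20709 in KO and 337378 ± 11318 in WT (SD, n = 3 each). The ratio of these sums, large over small, was 1.38, 1.36 and 1.36 in KO and 1.35, 1.36 and 1.35 in WT. Its mean was 1.37 ± 0.0085 in KO and 1.35 ± 0.0041 in WT, and the groups did not overlap (exact two-sided permutation p = 0.1, the smallest possible, n = 3 each). This separation rested on Rpl3l. Without that gene, a choice made after seeing the data, the ratio was 1.32, 1.33 and 1.31 in KO and 1.31, 1.32 and 1.33 in WT, and the groups overlapped (exact two-sided permutation p = 0.9, n = 3 each). The summed count in KO was then 0.789 of that in WT for the large subunit (0.796 with Rpl3l), and it was 0.788 for the small subunit.

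Levels per length differed far more between genes than between genotypes. Per kb of the principal transcript, a ribosomal protein gene had a median of 10844 normalized counts, against 190.3 for all genes tested, and the range was from 1319 to 37995. Rps2, a protein at the entry of the message channel, was highest at 37995 per kb, followed by Rplp1 (27262), Rplp0 (26759), Rps14 (23775) and Rps15 (18737). Rps2 had normalized counts of 31686, 33643 and 37227 in KO and 47467, 38692 and 38800 in WT, and WT 1 stood above the other libraries. The lowest levels per kb were those of Rps20 (1319), Rpl22l1 (1370), Rpl7l1 (2019), Rps27l (3409) and Rpl24 (3678), and 3 of these 5 are paralogs. The value of Rps20 rests on its only coding transcript in the annotation, which is 3706 bases long, whereas the median for the 81 genes is 729 bases. The level per kb did not order the fold changes, with a Spearman's rho of 0.0075 across the 80 genes, given as a description across genes.

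Rpl3l (ENSMUSG00000002500, chr17:24727820-24736143 of GRCm38) was the single ribosomal protein gene that did not follow the others. Its normalized counts were 12799.6, 8918 and 12624 in KO and 11919, 10127 and 8544 in WT, and the groups overlapped. Its parent Rpl3 (chr15:80077791-80091868) had 7015, 10266 and 8585 in KO and 11500.2, 11561 and 11979.9 in WT, with every KO library below every WT library. The log2 fold change was 0.16 (SE 0.16, adjusted p = 0.585) for Rpl3l and -0.46 (SE 0.12, adjusted p = 0.0906) for Rpl3. Per kb, Rpl3l had 8325 normalized counts in KO and 7416 in WT, whereas Rpl3 had 6382 in KO and 8646 in WT, so that the paralog was the more abundant message in KO means and the parent in WT means. The ratio of Rpl3l to Rpl3 was 1.82, 0.869 and 1.47 in KO 1, the library labelled KO 2 and KO 3, and 1.04, 0.876 and 0.713 in WT 1, WT 2 and WT 3. On the log2 scale it was 0.41 ± 0.55 in KO and -0.21 ± 0.27 in WT (SD, n = 3 each), a difference of 0.62 with an exact two-sided permutation p of 0.3 (0.5 with Benjamini-Hochberg adjustment over 5 pairs). The library labelled KO 2, in which Slc4a4 was above every WT library, decided this overlap, as the difference without it was 0.92 and the groups did not overlap (exact permutation p = 0.1, the smallest possible, n = 2 and 3, unadjusted). The messages of both genes share no run longer than 22 bases, which is short beside reads of 150 bases.

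The other paralogs moved with their parents. Rpl22l1 had 581, 676 and 702 in KO and 909.7, 725 and 944 in WT. Its parent Rpl22 had 4190.1, 5013 and 4722 in KO and 5506, 5573 and 5728 in WT. Both were lower in every KO library than in any WT library. The log2 ratio of Rpl22l1 to Rpl22 differed by -0.12 (KO minus WT), within its spread (exact permutation p = 0.4, n = 3 each). Rps27l, a gene induced by p53, had 1431, 1549.6 and 1576 in KO and 1860.3, 1865 and 1925 in WT, and its log2 ratio to Rps27 was -1.71 ± 0.12 in KO and -1.86 ± 0.063 in WT. This difference of 0.15 had all KO libraries above all WT libraries, with Rps27l lower by less than Rps27 (exact permutation p = 0.1, 0.5 after adjustment over the 5 pairs, n = 3 each). Rpl7l1 had 2361, 2509 and 2415 in KO and 2995, 2832 and 2754 in WT, and its log2 ratio to Rpl7 differed by 0.010 (exact permutation p = 0.9, n = 3 each). Rps4l, annotated as a transcribed processed pseudogene and so not counted among the 81, had 577, 867 and 767 in KO and 1049, 906 and 956 in WT, and its log2 ratio to Rps4x differed by -0.23 (exact permutation p = 0.3, n = 3 each). The lowest adjusted p of the 5 pairs was 0.5.

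**Figure D3:**
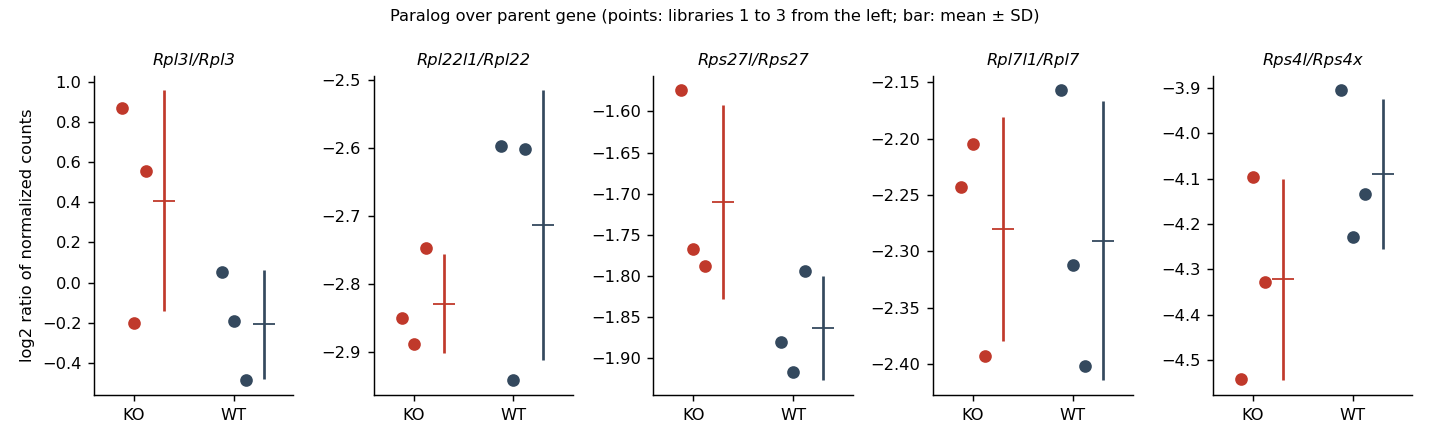
Each panel plots, for KO and WT, the log2 ratio of normalized counts of a paralog to its parent gene in each library, with the mean ± SD at the right of the points. Rpl3l over Rpl3 spans -0.20 to 0.87 in KO, and the scale of each panel differs.

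Rack1, Fau and Rpl36al, which belong with the ribosome but fall outside the name rule, had values within the range of the 81. Rack1, a scaffold on the small subunit, had 11079, 12246 and 12619 in KO and 15954, 15349 and 15302 in WT (log2 fold change -0.38, SE 0.069, adjusted p = 0.0815). Fau, which encodes a small subunit protein as part of a fusion, had a log2 fold change of -0.35, and Rpl36al had -0.30. In each of these genes the KO libraries were all below the WT libraries. The 40 pseudogenes of ribosomal protein genes in the table had a median log2 fold change of -0.36, and 35 were lower, against 8137 of all 16016 genes. In 10 of the 40 all KO libraries were below WT (14.6% of all genes). DESeq2 called 0 of the 40 lower at an adjusted p under 0.05 (3.76% of all genes). With values corrected for length and GC content, 28 of these pseudogenes were lower and their median was -0.18. Their summed count was 0.306% to 0.339% of that of the 81 genes. How reads shared between a gene and such copies were counted is not given in the sources used here, and the counts are uncertain to that extent.

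The genes of the machinery that builds ribosomes had medians nearer to 0. Of 42 ribosome biogenesis genes, 26 were lower and 16 higher, with a median log2 fold change of -0.057, and 9 lower and 1 higher had an unadjusted p under 0.05 (10.5% and 13% of all genes). Nop10, Nip7 and Nop56, which serve pseudouridylation, pre-ribosome assembly and methylation of ribosomal RNA, had log2 fold changes of -0.30, -0.26 and -0.22. Of 15 genes for RNA polymerase I, which transcribes ribosomal RNA, 5 lower and 2 higher had an unadjusted p under 0.05. Its subunits Polr1d and Polr1e had log2 fold changes of -0.33 and -0.35, while the largest subunit Polr1a had 0.32. Among 13 genes of mTOR and TOP message control, 2 lower and 6 higher had an unadjusted p under 0.05. Mtor had 3140.1, 2640.2 and 2821 in KO and 2001, 2183 and 2118 in WT (log2 fold change 0.45, SE 0.079, adjusted p = 0.0815), above WT in every KO library, and Tsc2 and Eif4ebp2, which restrain mTOR signalling or translation, had 0.32 and 0.36. None of these genes passed an adjusted p of 0.05 with limma. DESeq2 called 1 of the biogenesis genes lower (Nop10), 2 polymerase genes lower and 1 higher, and 1 mTOR and TOP control gene lower and 3 higher, against 3.76% and 6.15% of all genes. With values corrected for length and GC, as described with the length plot, the medians of the 3 lists were -0.030, -0.028 and -0.011. Before the correction they were -0.057, -0.067 and 0.15. The longest transcripts of the mTOR and TOP control genes had a median of 5784 bases, against 3188 for all genes. The genes of mTOR and TOP control at an unadjusted p under 0.05 were then 2 lower and 3 higher, against 6.69% and 7.75% of all genes.

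Other messages with a TOP start were lower more often than higher, but less uniformly than the ribosomal protein genes. Of 14 such genes, 9 were lower and 5 higher, with a median of -0.12. At an unadjusted p under 0.05, 7 were lower and 1 higher (10.5% and 13% of all genes). DESeq2 called 4 lower and 0 higher at an adjusted p under 0.05 (3.76% and 6.15% of all genes). After the correction for length and GC content the median was -0.056. At an unadjusted p under 0.05, 1 lower and 0 higher were then left (6.69% and 7.75% of all genes). Eef1b2, an exchange factor of elongation, had 4879, 5989 and 5775 in KO and 7409, 7188 and 7241 in WT (log2 fold change -0.40, SE 0.082, adjusted p = 0.0815), and Tpt1 and Eif3h had -0.26 and -0.25. Naca, which binds nascent chains, was above WT in every KO library with 16485, 18604 and 16804 in KO and 13503, 15315 and 15613 in WT (log2 fold change 0.22). Eef2, the translocase, had 70168, 83480.4 and 75173 in KO and 75412, 80366 and 76169.8 in WT, with overlapping groups and a log2 fold change of -0.023. The 78 mitochondrial ribosomal protein genes were lower in 75 cases, with a median of -0.17. Among them, 40 had all KO libraries below WT (14.6% of all genes), and DESeq2 called 20 lower at an adjusted p under 0.05 (3.76% of all genes). With the correction 54 of the 78 were lower, and the median was -0.066. Then 20 genes had all KO libraries below WT (10% of all genes), and DESeq2 called 2 lower (1.05% of all genes).

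Transcript length moved with these differences across the whole table. The principal transcripts of the 81 genes had a median length of 729 bases, against 2667 for all genes tested, and the log2 fold change of all genes correlated with this length (Spearman's rho = 0.46 across genes, which are not independent). When the other genes were put in 10 length classes of about equal size, the median log2 fold change was -0.20 in the shortest class (up to 966 bases) and 0.23 in the longest (from 5964 bases). In the shortest class, 33.0% of the other genes had all KO libraries below all WT libraries, and the 59 ribosomal protein genes of that length had a median of -0.37 with 59 of 59 below. In the next class (967 to 1433 bases), the medians were -0.15 for the other genes and -0.28 for 16 ribosomal protein genes. Within the 80 genes, length and fold change had a rho of 0.15. The 6 ribosomal protein genes longer than 1433 bases had log2 fold changes from -0.43 (Rps20) to -0.25 (Rpl4), with Rps3 and Rpl5 at -0.35. Rps20 counts as long only through its single coding transcript in the annotation.

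After each library was corrected for the length and GC content of the longest transcript with splines, the median of the 81 genes was -0.21, and 80 genes remained lower. KO libraries were then all below WT libraries for 61 genes (10% of all genes), and 54 had an unadjusted p under 0.05 in the lower direction (6.69% of all genes). DESeq2 with the same correction called 25 of the 81, of which 25 were lower, against 1.05% of all genes in that direction. The log2 fold changes of Rps14 and Rps27a were -0.32 and -0.31 in the corrected values, that of Rpl3 was -0.35, and those of Rps4x, Rpl10, Rpl29 and Rps6 were -0.021, -0.031, -0.012 and -0.042. Rpl3l stood at 0.32. The correction was also run with principal transcripts, a choice made after seeing the data. KO libraries were then all below WT libraries for 57 of the 81 genes (1539 of all 16016 genes). With limma, 44 had an unadjusted p under 0.05 in the lower direction (965 of all 16016). After either form of the correction, no gene had an adjusted p under 0.1 with limma. For some genes the longest transcript far exceeds the principal one. Rps15a (5179 against 640 bases) had -0.56 with the longest and -0.27 with the principal transcript. What produced the dependence on length was not tested.

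**Figure D4:**
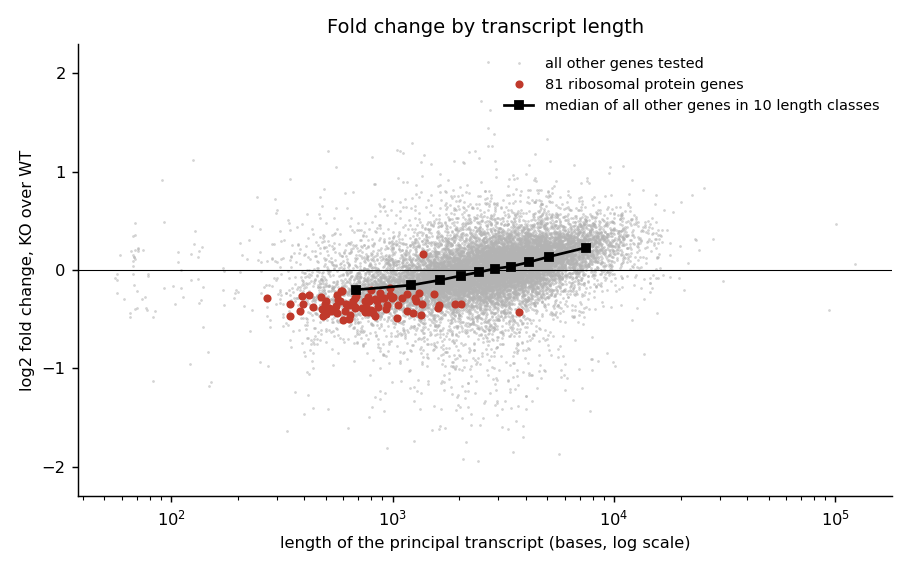
Each point is a gene, with the length of its principal transcript in bases on a log scale (horizontal axis) and its log2 fold change, KO over WT (vertical axis). Black squares are medians of the other genes in 10 length classes, from -0.20 to 0.23, and the red ribosomal protein genes lie mostly below this line at their lengths, except for Rpl3l at 0.16.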

How the data were processed

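RNA from 6 hearts was sequenced as paired reads of 150 bases. Per the labels, the authors used Trimmomatic 0.36, STAR 2.5.2b, featureCounts of Subread 1.5.2 and DESeq2 with GRCm38, and the deposited signal is read counts divided by a size factor of each library, not by gene length. Whether strand or shared reads were considered is not given in the sources used here. In every library 100% of values were whole multiples (tolerance 0.01) of the worth of 1 read, so reads were recovered. Counting error was 3.64% at the mean count of the lowest ribosomal protein gene, and larger in libraries with fewer of its reads. Symbols and lengths came from GENCODE M21. The principal transcript is the shortest one that APPRIS marks as principal.

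log2(normalized count + 1) was compared between KO and WT with limma 3.58.1 (variance trend, two-sided, Benjamini-Hochberg adjustment, 16016 genes with a mean of at least 10), so fold changes of low genes are understated. Since the unit is not counts, edgeR 4.0.16 and DESeq2 1.42.0 were run on the recovered reads as alternatives. Ratios and sums were compared with exact two-sided permutation tests. Whether the libraries of a group come from separate litters is not stated, so p-values measure the spread between these samples. Procedures were tested on simulated data.

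The genes and lists were chosen with earlier results of these data known. The text names Slc4a4, the paralog pairs, the 5 highest and 5 lowest levels per kb, the 6 fold changes at each end, Fau, Rack1, Rpl36al, and up to 3 genes of each other pathway list with the lowest p. Rplp2, Rpl4, Rpl5, Rps3, Rpl36a, Rpl39, Rps28, Rps29, Eef2, Naca and the genes whose starts are printed were added after their values were seen. A further gene named by the rule was left out of the text. The authors' own comparisons were not used. No column was left unmatched.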

Additional observations from a re-analysis of the deposited data

How the results depend on the processing

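The median log2 fold change of the ribosomal protein genes was negative under every alternative run. It was -0.21 with the correction for length and GC content, with limma or DESeq2, -0.17 when that correction used principal transcripts, a choice made after seeing the data, -0.43 after rescaling to the same total, where the median of all genes was -0.077, and -0.40 to -0.28 with 1 library left out. Genes called at an adjusted p under 0.05 were 0 with limma but 1587 with DESeq2, 345 with DESeq2 and the correction, 1195 with DESeq2 without the library labelled KO 2, and 0 to 3 with 1 library left out in limma, of which 3 without the library labelled KO 2. The ribosomal protein genes among them were 0 with limma in each case, and 76, 25 and 69 with DESeq2. The last 2 settings of DESeq2 were chosen after seeing the data, and the cause of the difference between the tools was not tested. The median of the large subunit minus that of the small subunit, -0.0019, was 0.016 with the correction, 0.014 with DESeq2 and the correction, -0.011 with DESeq2 without the library labelled KO 2, and -0.014 to 0.014 with 1 library left out, so its sign was not determined. The number of ribosomal protein genes with no overlap between genotypes was 80 to 81 with 1 library left out, of which 80 had KO below WT in each case and the other, Rpl3l, lay above WT without the library labelled KO 2. Over all genes 17.8% to 21.3% lay below and 18.2% to 21.7% above. In the same settings the log2 ratio of Rpl3l to Rpl3 differed by 0.39 to 0.92. Rpl29 changed sign, to 0.012, with the correction by principal transcripts. With the replicate number as a block, the median was -0.35 and 0 of the 81 genes had an adjusted p under 0.1. Same-numbered libraries correlated at 0.23, 0.072 and -0.029 in their deviations from the group means, not every library was closest to its own number, and the mice are different animals, so the numbers were not taken as pairs. Depth limited no ribosomal protein gene, and 3 hearts per group cannot give an exact p under 0.1.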
